A study of Mus musculus with 6 samples.

Results

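The BCL-2 family decides whether a cell under stress keeps its mitochondria intact or undergoes apoptosis. Here 10 of its genes, chosen by name, were followed in cultured mouse dendritic cells with and without DB2313. They were 10 of the 54532 genes in the count table. The 6 pro-survival genes were Bcl2, Bcl2l1, Mcl1, Bcl2a1a, Bcl2a1b and Bcl2a1d, the 2 pore-forming effectors were Bax and Bak1, and the 2 BH3-only genes, whose products trigger death, were Bcl2l11 and Bbc3. DB2313 is a small molecule with which the study inhibited Spi1 (PU.1), a transcription factor of myeloid cells. RNA-seq was performed on 3 control and 3 DB2313-treated libraries. Both groups were labelled as dendritic cells kept in serum-supplemented medium, and the labels gave no strain, age, genotype, dose or time. Which columns hold treated cells was read from short column names, and every direction given here rests on that. For its RNA-seq the study's methods name macrophages, whereas the labels give dendritic cells. Nothing stated that the libraries came from separate animals or cultures, so the p-values measure the spread between these samples, which may be technical.

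In a living cell the pro-survival proteins hold BAX and BAK in check. BH3-only proteins such as BIM, encoded by Bcl2l11, and PUMA, encoded by Bbc3, bind the pro-survival proteins and so free the effectors, which then open pores in the outer mitochondrial membrane. Cytochrome c leaves through these pores and starts the caspases. MCL1 and A1 are short-lived proteins with known roles in leukocyte survival, and the mouse carries A1 as several gene copies named Bcl2a1.

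The 3 expressed Bcl2a1 copies lie within the same region of chromosome 9 and are so similar that reads can be hard to place. Their coding frames (519 bases each, from the GENCODE M21 transcripts) differed at 12 positions, and the longest stretch with no difference was 217 bases. The first 90 coding bases hold 6 of these 12 positions and are shown because a read can be assigned to 1 copy only where it covers such a base. Capitals mark the positions at which the copies differ.
Bcl2a1a: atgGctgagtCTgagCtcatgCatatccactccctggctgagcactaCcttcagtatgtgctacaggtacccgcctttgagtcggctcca
Bcl2a1b: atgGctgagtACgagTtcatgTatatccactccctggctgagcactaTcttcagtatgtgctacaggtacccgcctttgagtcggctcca
Bcl2a1d: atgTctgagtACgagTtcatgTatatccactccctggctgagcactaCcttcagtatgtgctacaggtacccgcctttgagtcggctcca

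Of all stretches of 100 bases in the longest transcript, 43.5% of Bcl2a1a, 56.8% of Bcl2a1b and 54.7% of Bcl2a1d occurred letter for letter in another gene. Bax had 9.49% such stretches, and the other 6 genes had 0. Neither the read length nor the rule for reads that match several genes was given, so the counts of single Bcl2a1 copies are uncertain. If reads that match several copies were left out, the counts of all the copies are too low. In addition, 49.1% of the exonic bases of Bcl2a1b and 12.2% of those of Bax are shared with another annotated gene on the same strand (Gm29094 and Gm45808). These 2 genes had 0 counts in all 6 libraries. How reads on bases shared by 2 annotated genes were counted was not given. If such reads were left out, the counts of Bcl2a1b and Bax are too low. Ggnbp1 covers 25.5% of the exonic bases of Bak1 on the opposite strand, with 30 to 59 counts per library, and D630008O14Rik covers 6.09% of those of Bcl2, with 0 counts.

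PU.1 binds purine-rich DNA with GGAA at its core, so the promoters were searched for such letters (RefSeq starts, GRCm38.p6, 250 bases before to 50 after, both strands). All 10 genes had at least 1 window. The 8 letters GAGGAAGT were present for Bcl2a1a, Bcl2a1b, Bcl2a1d and Bak1, and for 3.69% of all 27025 genes with a window (3.20% of 32851 windows). The shorter GGAAGT, which the first motif contains, was present for these 4 genes and for Mcl1 and Bcl2l1, and for 26.5% of all genes (23.8% of windows). The Bcl2a1 copies have nearly the same letters around the motif, so their matches are not separate occurrences. The window of Bak1 lies inside the span that the deposited table gives for this gene. Counted from the RefSeq start, GAGGAAGT began 104 bases before Bcl2a1a and Bcl2a1d and 148 bases before Bcl2a1b. Counted from the starts in the deposited table, it lies equally far before Bcl2a1a and Bcl2a1b. In Mcl1, GGAAGT began at base 2 from the RefSeq start, which lies upstream of the start that the deposited table gives for this gene. The stretches that hold these letters are shown for the gene that changed and for the 3 copies of Bcl2a1, with the motif in capitals. They were chr3:95658631-95658740 (plus strand), chr9:88956756-88956875 (plus), chr9:89199065-89199184 (plus) and chr9:88731915-88732014 (minus), in the order printed.
Mcl1: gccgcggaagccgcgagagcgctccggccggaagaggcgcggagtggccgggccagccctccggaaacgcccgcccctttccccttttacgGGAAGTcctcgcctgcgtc
Bcl2a1a: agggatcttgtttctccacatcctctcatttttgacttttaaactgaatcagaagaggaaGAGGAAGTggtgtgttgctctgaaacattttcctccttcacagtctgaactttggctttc
Bcl2a1b: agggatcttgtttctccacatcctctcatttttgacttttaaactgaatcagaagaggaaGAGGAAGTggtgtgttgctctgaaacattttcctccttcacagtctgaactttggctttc
Bcl2a1d: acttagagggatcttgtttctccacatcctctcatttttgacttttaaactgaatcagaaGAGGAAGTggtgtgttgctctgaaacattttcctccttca

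The stretches of Bcl2a1a and Bcl2a1b carry a further gaggaa just before the motif. A match describes the letters only and shows no binding.

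Total counts ranged from 16146743 to 19764677 per library, and the 10 genes took 0.170% to 0.195% of them. Between libraries of 1 group, chi-square over its degrees of freedom was 5.07 to 5.62 in control and 8.08 to 19.8 with DB2313, with replicates 1 and 3 of DB2313 the most distant pair. Of the 12 dendritic cell markers examined 11 passed the filter on low counts, and Cd209a had 0 to 4 counts per library. The summed level of the list was 13300 to 13500 CPM (counts scaled to a common library size) in control and 11400 to 13200 CPM with DB2313. Markers of macrophages (10000 to 11400 and 8980 to 9870 CPM), neutrophils (4840 to 5320 and 5220 to 6510 CPM) and mast cells and basophils (2520 to 2720 and 2570 to 3080 CPM) were also well expressed. T cell markers summed to 209 to 243 CPM in control and 210 to 316 CPM with DB2313, and B cell markers to 2.89 to 4.06 and 5.35 to 6.80 CPM. No marker of any of these lists was at 0 in all libraries. Spi1 itself had 5135 to 6548 counts per library and a log2 fold change of -0.15 (edgeR adjusted p 0.206).

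The control cells expressed mainly 2 kinds of pro-survival gene. Levels are compared between genes as RPKM, CPM per kilobase of the gene length in the deposited table. For these genes that length equals all annotated exonic bases together. For several members it exceeds the longest transcript, so the order below depends on the length used. Bcl2a1d (274 ± 3.99 RPKM, SD, n = 3) and Mcl1 (255 ± 3.51 RPKM) were the highest, followed by Bcl2a1a (145 ± 2.44 RPKM) and Bcl2a1b (99.6 ± 4.43 RPKM). The effectors came next, with Bax at 92.5 ± 10.8 and Bak1 at 69.6 ± 1.49 RPKM. Bbc3 (30.7 ± 1.52 RPKM), Bcl2l1, which encodes BCL-XL (20.3 ± 0.694 RPKM), and Bcl2l11 (15.9 ± 0.534 RPKM) were lower. Bcl2, the founding gene of the family, was the lowest, at 3.01 ± 0.0301 RPKM. In this order only Bcl2a1b and Bax overlapped with each other between control libraries (96.1 to 105 against 80.2 to 100 RPKM). The levels of the Bcl2a1 copies rest on reads that may belong to another copy. They are all too low if reads that match several copies were left out. The levels of Bcl2a1b and Bax may also lack reads on bases shared with another annotated gene.

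To ask which of these genes changed with DB2313, each was read from the edgeR quasi-likelihood test over all 14174 genes tested. All 10 genes passed the filter on low counts. Mcl1 was called lower at an adjusted p under 0.05 and no member was called higher. This was 1 of 10 genes, against 10.6% of all genes tested called in either direction, 5.94% called lower and 4.66% called higher. The share of called members was thus near that of genes in general. The groups did not overlap for 3 members, Mcl1, Bbc3 and Bcl2l11, against 27.4% of all genes tested. At the unadjusted level 2 members, Mcl1 and Bbc3, had a p under 0.05, against 23.3% of all genes. The median absolute log2 fold change was 0.10 over the members and 0.16 over all genes tested, and the medians with sign were 0.0042 and 8.2e-04. For the 9 members that were not called, the 95% intervals of the fold change lay between 0.744 and 1.29.

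**Figure D1:**
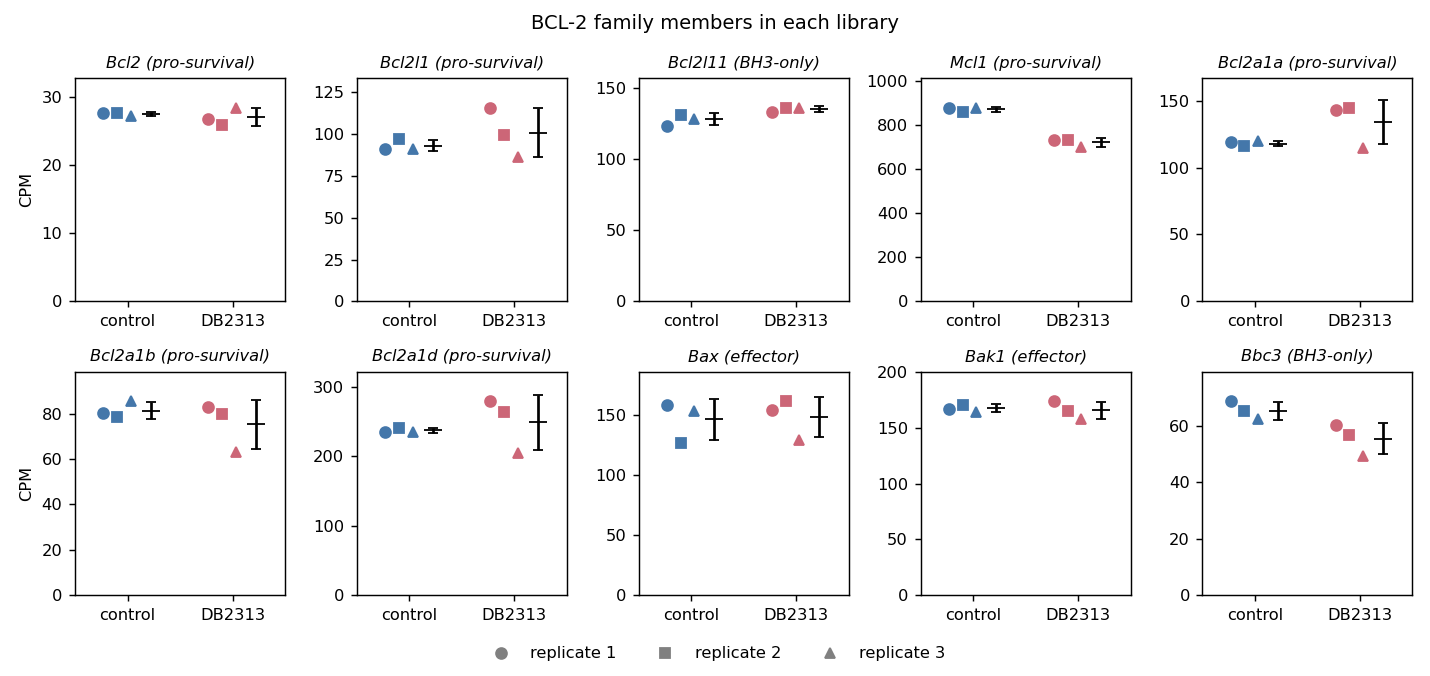
Level of each BCL-2 family member in CPM (vertical axes, from 0) in the 3 control (blue) and 3 DB2313 (red) libraries, with marker shapes for the replicates and the mean ± SD (n = 3) in black beside each group. The DB2313 libraries of Mcl1, at 700 to 735 CPM, sit below all control libraries, whereas DB2313 replicate 3 stands low for the 3 Bcl2a1 copies.

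Mcl1, the most read of these genes, encodes a pro-survival protein that binds BIM, PUMA and BAK. Mcl1 (ENSMUSG00000038612, GRCm38 chromosome 3, 95658788 to 95663176, plus strand) was at 881, 859 and 878 CPM in control replicates 1 to 3 and at 734, 735 and 700 CPM in DB2313 replicates 1 to 3. All treated libraries were below all control libraries, and each stood at 80.2% to 84.2% of the control mean. The level fell from 873 ± 12 to 723 ± 19.9 CPM (SD, n = 3 each), a log2 fold change of -0.27 ± 0.063 (SE) with an edgeR adjusted p of 0.0110. The fold change was 0.828, with a 95% interval of 0.755 to 0.908. The counts behind it were 11645 to 14646 reads per library. In these bulk libraries fewer cells that express Mcl1 and less Mcl1 RNA per cell cannot be told apart. Where 5.94% of all genes tested were called lower and 4.66% higher, 7 of 12 macrophage markers were also called lower and 1 higher. Of 11 tested dendritic cell markers 2 were lower and 1 higher. The part of either list in the Mcl1 result was not tested. The size of the change hardly moved when a library was left out (log2 fold change -0.28 to -0.25), but the call was lost in 4 of the 6 fits that left out 1 library. The edgeR adjusted p was 0.0565, 0.0537 and 0.0722 without control replicates 1, 2 and 3 and 0.0647 without DB2313 replicate 2. Those fits called 3.35%, 3.00%, 3.25% and 2.82% of all genes tested lower and 2.49%, 2.48%, 2.64% and 2.25% higher. With the replicate number as a block Mcl1 was not called either (adjusted p 0.0672), and 4.44% of all genes were called lower.

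The Bcl2a1 copies encode A1, a pro-survival protein induced by inflammatory signals in leukocytes. Bcl2a1a (ENSMUSG00000102037, chromosome 9, 88956900 to 88962419, plus strand) was at 119, 116 and 120 CPM in control replicates 1 to 3 and at 143, 145 and 115 CPM in DB2313 replicates 1 to 3. Bcl2a1d (ENSMUSG00000099974, chromosome 9, 88723285 to 88731914, minus strand) was at 235, 241 and 235 CPM in control and at 279, 264 and 204 CPM with DB2313. Bcl2a1b (ENSMUSG00000089929, chromosome 9, 89199209 to 89207827, plus strand) was at 80.1, 78.5 and 85.4 CPM in control and at 82.8, 79.6 and 63.1 CPM with DB2313. For Bcl2a1a and Bcl2a1d, DB2313 replicates 1 and 2 were above all control libraries and replicate 3 was below all of them. For Bcl2a1b, replicates 1 and 2 lay within the control range and replicate 3 below it.

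None of the copies was called. The log2 fold changes were 0.18 ± 0.087 for Bcl2a1a, 0.074 ± 0.095 for Bcl2a1d and -0.11 ± 0.10 for Bcl2a1b (SE), with edgeR adjusted p of 0.221, 0.708 and 0.540. Reads placed on the wrong copy matter less when the copies are summed, but a sum does not recover reads that were left out. The sum was 434, 435 and 440 CPM in control replicates 1 to 3 and 505, 489 and 383 CPM in DB2313 replicates 1 to 3. The summed copies had a log2 fold change of 0.076 ± 0.091 (SE), an edgeR adjusted p of 0.684 and a 95% interval of -0.12 to 0.27. Again DB2313 replicate 3 was below all control libraries and the other 2 treated libraries were above them.

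The values of Bcl2a1 with DB2313 thus rested on 1 library. Without DB2313 replicate 3, Bcl2a1a had a log2 fold change of 0.28 ± 0.071 and Bcl2a1d one of 0.20 ± 0.066 (SE), with edgeR adjusted p of 0.00701 and 0.0396, and Bcl2a1b one of -0.0019 (adjusted p 0.991). That fit called 7.55% of all genes tested higher and 9.02% lower. It leaves out the library that was lowest for these copies. Without DB2313 replicates 1 and 2, Bcl2a1a had 0.14 and 0.12 (edgeR adjusted p 0.353 and 0.609). Bcl2a1d had -0.013 and 0.031 (edgeR adjusted p 0.953 and 0.934). Bcl2a1a and Bcl2a1d each passed in 1 of the 13 alternatives that kept the copies apart. Replicate 3 was the lowest of the treated libraries for each of the copies. Among the treated libraries it also had the lowest summed levels of the dendritic cell markers (11400 CPM, against 13200 and 12300 in replicates 1 and 2), the neutrophil markers (5220 CPM, against 6510 and 5590), the mast cell and basophil markers (2570 CPM, against 3080 and 2940) and the T cell markers (210 CPM, against 316 and 259), and the highest of the macrophage markers (9870 CPM, against 9210 and 8980). In replicate 3, Cd74 of the dendritic cell list was at 5390 CPM and Lyz2 of the macrophage list at 8250 CPM. These sums thus follow a few abundant genes, and not every marker followed its sum. Itgax, Zbtb46 and Ciita of the dendritic cell list and Mmp8 of the neutrophil list were highest in replicate 3. C1qc of the macrophage list was lowest there. Over all libraries, 4.66% of all genes tested were called higher with DB2313 and 5.94% lower. Of 12 neutrophil markers 4 were higher and 1 was lower. Higher calls were made for 2 of 9 tested mast cell and basophil markers, and none of 10 T cell markers was called. The part of these cells in the Bcl2a1 values was not tested.

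**Figure D2:**
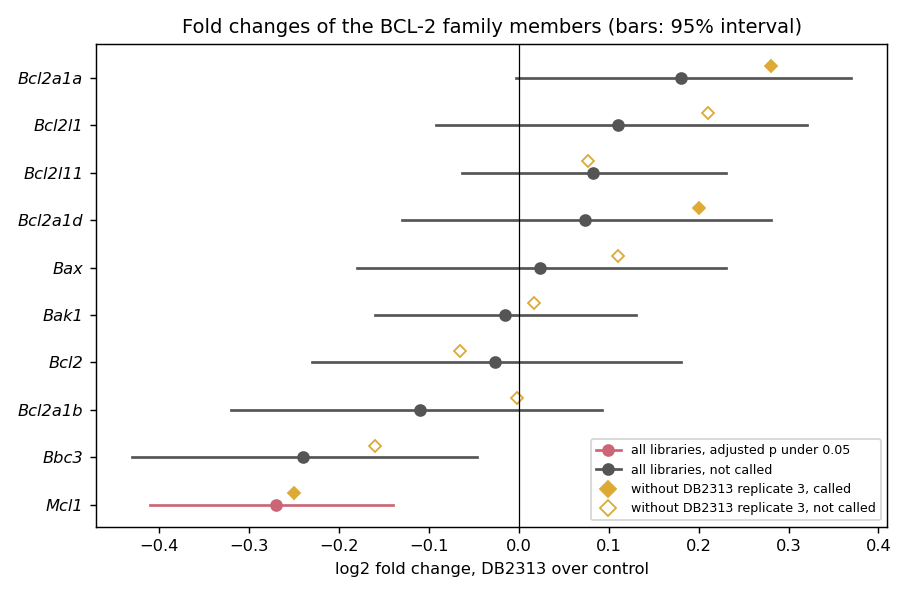
Log2 fold change of each member, DB2313 over control (horizontal axis), with its 95% interval from all libraries (circles and bars, red where called) and the value without DB2313 replicate 3 (diamonds, filled where called). Mcl1 keeps its place near -0.25, while Bcl2a1a and Bcl2a1d move to 0.28 and 0.20 when that library is left out.

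The reads were also divided a little differently among the copies. Bcl2a1b took 18.4%, 18.0% and 19.4% of the reads on the 3 copies in the control libraries and 16.4%, 16.3% and 16.5% in the treated ones, in replicate order. Bcl2a1a took 26.7% to 27.5% in control and 28.2% to 30.1% with DB2313. The groups did not overlap for either copy, and DB2313 replicate 3 was like the other treated libraries in this respect. The share of Bcl2a1d was 53.4% to 55.3% in control and 53.4% to 55.4% with DB2313. Differences in these shares also depend on how reads common to the copies were assigned.

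Bcl2l1 and Bcl2 complete the pro-survival members. Bcl2l1 (ENSMUSG00000007659, chromosome 2, 152780668 to 152831728, minus strand) was at 91.4, 96.9 and 91.3 CPM in control replicates 1 to 3 and at 116, 99.7 and 86.3 CPM in DB2313 replicates 1 to 3. The treated libraries lay on both sides of the control range, and the log2 fold change was 0.11 ± 0.10 (SE, edgeR adjusted p 0.537). It was 0.21 ± 0.080 without DB2313 replicate 3 (adjusted p 0.0741) and 6.4e-04 at the lowest when another library was left out. Bcl2 (ENSMUSG00000057329, chromosome 1, 106538178 to 106714274, minus strand) was at 27.2 to 27.7 CPM in control and at 25.9 to 28.5 CPM with DB2313. Its groups overlapped, with a 95% interval of the fold change of 0.854 to 1.13.

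Summed per length, the pro-survival genes were at 797 ± 5.40 RPKM in control and 781 ± 87.0 RPKM with DB2313 (SD, n = 3 each). The treated libraries, at 842, 820 and 682 RPKM, lay above and below the control range of 792 to 803 RPKM. The makeup of this sum also differed between the groups in these libraries, which was not tested. Mcl1 made up 32.4%, 31.7% and 32.0% of it in the control libraries and 25.5%, 26.2% and 30.0% in the treated ones, in replicate order. The Bcl2a1 copies made up 64.8% to 65.2% in control and 66.7% to 71.1% with DB2313. There was no overlap between the groups for these shares, and replicate 3 was the treated library nearest to control. Mcl1 and the Bcl2a1 copies make up nearly all of the sum, so their shares are not separate results. The sum and the shares also depend on the uncertain counts of the Bcl2a1 copies. With 3 libraries a group the smallest p of an exact permutation test is 0.1, so none is given for these shares.

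**Figure D3:**
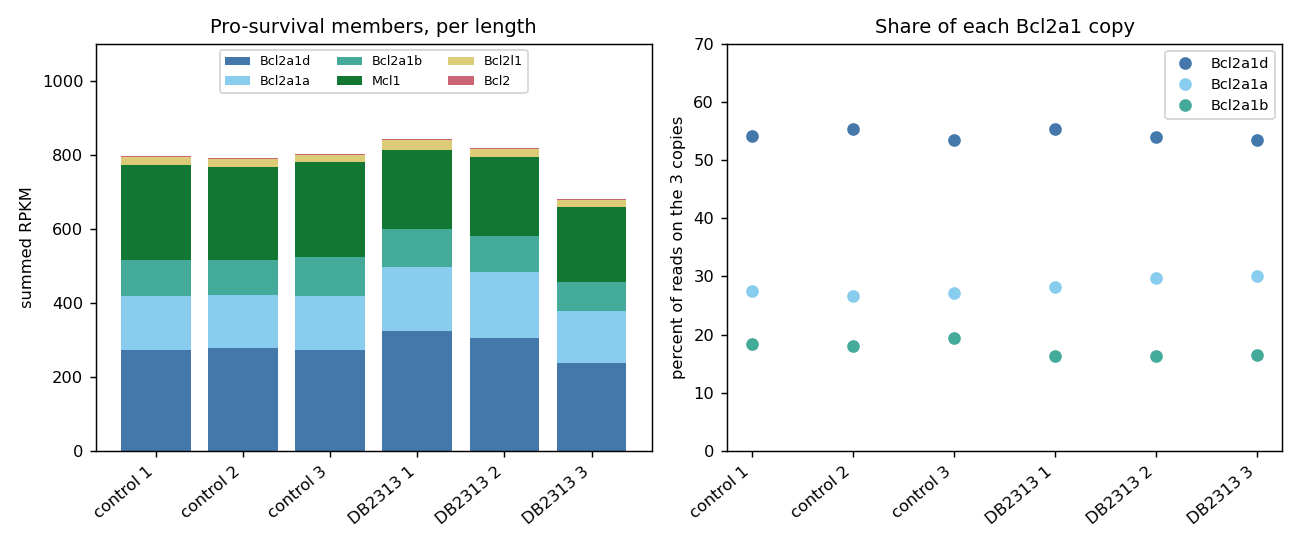
Left, RPKM of the 6 pro-survival genes stacked for each library; right, percent of the reads on the 3 Bcl2a1 copies that each copy took in each library. The stack of DB2313 replicate 3 is the lowest at 682 RPKM, and the share of Bcl2a1b is lower in all treated libraries (16.3% to 16.5%) than in any control library.

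Neither of the effectors was called. Bax (ENSMUSG00000003873, chromosome 7, 45461697 to 45466898, minus strand) was at 158, 126 and 153 CPM in control replicates 1 to 3 and at 154, 161 and 129 CPM in DB2313 replicates 1 to 3. Bak1 (ENSMUSG00000057789, chromosome 17, 27019810 to 27029009, minus strand) was at 164 to 171 CPM in control and at 158 to 174 CPM with DB2313. Both overlapped between groups. The log2 fold changes were 0.024 ± 0.10 for Bax and -0.015 ± 0.069 for Bak1 (SE), with edgeR adjusted p of 0.922 and 0.930. The 95% intervals of the fold change were 0.881 to 1.17 and 0.894 to 1.1.

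Of the BH3-only genes, Bbc3 is best known as a target of p53. Bbc3 (ENSMUSG00000002083, chromosome 7, 16308393 to 16318205, plus strand) was at 68.6, 65.1 and 62.2 CPM in control replicates 1 to 3 and at 60.1, 56.8 and 49.3 CPM in DB2313 replicates 1 to 3. All treated libraries were below all control libraries. At a log2 fold change of -0.24 ± 0.089 (SE) it had an unadjusted p of 0.0183, but the edgeR adjusted p was 0.114 and it was not called. It passed under an offset for gene length (-0.28, adjusted p 0.0200, where 6.99% of all genes were called lower) and without DB2313 replicate 1 (-0.30, adjusted p 0.0313, where 6.33% were called lower and 5.42% higher).

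Bcl2l11 (ENSMUSG00000027381, chromosome 2, 128126038 to 128162547, plus strand) was at 123, 131 and 128 CPM in control replicates 1 to 3 and at 133, 136 and 136 CPM in DB2313 replicates 1 to 3. The treated libraries were all above the control libraries, by a small margin. The log2 fold change was 0.083 ± 0.069 (SE, edgeR adjusted p 0.523), with a 95% interval of the fold change of 0.957 to 1.17. Reads on Mcl1 were 6.54 to 7.17 times those on Bcl2l11 in the control libraries and 5.13 to 5.52 times in the DB2313 libraries, with no overlap. This lack of overlap follows from the levels of Mcl1 and Bcl2l11 given above, and the ratio was not tested.

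The other members of the family were examined as lists. Over all genes tested, 10.6% were called in either direction. Of the other pro-survival genes, Bcl2l2 (BCL-W) had 25.6 ± 2.58 CPM in the control libraries and 24.7 ± 2.06 CPM in the treated ones. Bcl2l10 had 0 counts in all libraries and Bcl2a1c at most 2. The effector-like Bok had 1 to 6 counts per library. Of the 6 other BH3-only genes, 5 were tested and none was called. Bmf (170 ± 8.27 CPM) and Pmaip1, which encodes NOXA, an MCL1-binding protein (159 ± 6.93 CPM), had these levels in control and log2 fold changes of -0.054 and 0.094. Bid had a log2 fold change of 0.24 ± 0.084 and Bik, at 4 to 17 counts per library, one of 1.40 ± 0.51 (SE). For both the groups did not overlap, and the edgeR adjusted p was 0.0866 and 0.0983. None of 5 tested related genes was called either, among them Bcl2l14 (-0.36, adjusted p 0.0937) and Bnip3l (-0.19, adjusted p 0.124).

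Among the caspases reported here, Casp2 and Casp6 were called higher. Casp2, an initiator caspase linked to DNA damage, was at 36.6, 30.8 and 30.3 CPM in control replicates 1 to 3 and at 51.0, 67.3 and 66.0 CPM in DB2313 replicates 1 to 3. It rose by 0.92 ± 0.11 on the log2 scale (SE, edgeR adjusted p 1.14e-04). Casp6, an effector caspase, was at 26.0, 27.7 and 26.7 CPM in control and at 44.4, 49.4 and 43.9 CPM with DB2313. It rose by 0.78 ± 0.091 (SE, edgeR adjusted p 6.92e-05). Both were larger changes than that of any member, and both passed in all 14 alternatives.

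Casp9 and Apaf1, which form the apoptosome with cytochrome c, had log2 fold changes of 0.10 and 0.16 and were not called, with adjusted p of 0.498 and 0.283. Of the 9 inhibitors of apoptosis and their antagonists, Birc3 (cIAP2) alone was called, against 10.6% of all genes tested. It was at 172, 181 and 167 CPM in control and at 138, 145 and 154 CPM with DB2313, and fell by 0.25 on the log2 scale (edgeR adjusted p 0.0375). Xiap, which blocks caspases directly, had a log2 fold change of 0.10 (adjusted p 0.548).

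**Figure D4:**
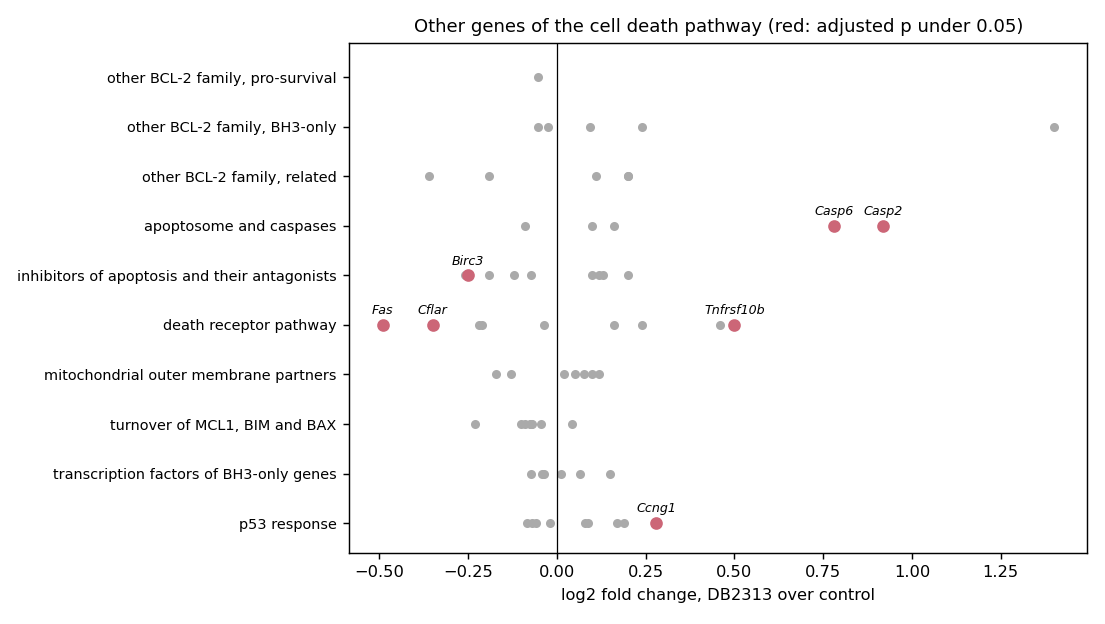
Log2 fold change, DB2313 over control (horizontal axis), of tested genes reported here from 10 lists of other cell death genes (1 list a row); red points are called at an adjusted p under 0.05 in edgeR. Casp2 and Casp6 lie farthest to the right of the called genes, at 0.92 and 0.78, and Fas farthest to the left, at -0.49.

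In the death receptor pathway, 1 of 9 genes was called higher and 2 lower, against 4.66% and 5.94% of all genes tested. Fas, the receptor for FAS ligand, was at 56.6, 54.3 and 55.4 CPM in control and at 41.9, 42.0 and 34.3 CPM with DB2313. It fell by 0.49 on the log2 scale (SE 0.094, edgeR adjusted p 0.00308) and passed in all 14 alternatives. Cflar, which encodes FLIP, the inhibitor of caspase-8, fell from 148 ± 10.3 to 116 ± 16 CPM (log2 fold change -0.35, adjusted p 0.0264). Tnfrsf10b, the TRAIL receptor, rose from 9.01 ± 0.913 to 12.8 ± 0.278 CPM (0.50, adjusted p 0.0324). Casp8 had a log2 fold change of -0.22 and was not called (adjusted p 0.113).

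No call was made among 7 tested genes of the outer membrane or 8 tested genes for the turnover of MCL1, BIM and BAX. None of 6 tested transcription factors of BH3-only genes was called either, against 10.6% of all genes tested. Trp53, which encodes p53, had a log2 fold change of 0.15 (adjusted p 0.233) and Foxo3 one of -0.036 (0.838). Of the 9 genes of the p53 response, Ccng1 (cyclin G1) rose from 335 ± 16.2 to 405 ± 13.4 CPM (0.28, adjusted p 0.0152), and Cdkn1a had a log2 fold change of 0.17 (0.140). None of the called genes named from the pathway lists shares an exonic base with another annotated gene. Other called genes outside the 10 members were not checked for this. Of 14 alternatives, Birc3 passed in 7, Tnfrsf10b in 9, and Cflar and Ccng1 in 10 each. All 4 calls were lost without DB2313 replicate 2 and without control replicate 1, those of Birc3, Tnfrsf10b and Ccng1 also with the replicate block, and those of Birc3 and Cflar with library totals. The highest adjusted p over the alternatives was 0.118 to 0.195.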

How the data were processed

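The deposited table held unnormalised counts, in whole reads for each gene and library, beside the gene length in base pairs. CASAVA 1.8, HISAT2 2.0.5 and featureCounts 1.5.0-p3 are listed in the submitters' processing notes, whereas the methods of the study named LifeScope. The build, the use of strand and the handling of multi-mapping reads were not given in the sources used here. Of 54495 identifiers shared with GENCODE M21 (GRCm38), 98.33% had the same start and end. The columns carried short names, of dendritic cells for control and of Spi1 for DB2313, and were matched to the labels by these and by number. Every direction rests on that reading.

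The main test was edgeR 4.0.16 (quasi-likelihood, TMM, filterByExpr) in R 4.3.3, with no term but the group, and p-values were adjusted over 14174 genes (Benjamini-Hochberg). A gene was called at an adjusted p under 0.05. The study named DESeq2, used here as an alternative (1.42.0), as were limma-voom (3.58.1), other scalings, no filter, a gene-length offset (lowess, span 0.3), the replicate number as a block, summed Bcl2a1 copies and the omission of each library. The edgeR, limma-voom and DESeq2 tests of the group difference were tried on simulated counts. The other settings and steps were not. The members, lists and alternatives were chosen with earlier results of these data known. The pathway lists were written from general knowledge, and up to 3 called genes per direction were named from each. Other list genes were named after their values were seen. The labels gave no batch or date. No source mentioned molecular identifiers, so counts may not be numbers of molecules. Some genes of the caspase list, and counts over that list, are not reported here.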

Additional observations from a re-analysis of the deposited data

How the results depend on the processing

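The log2 fold change of Mcl1 kept its direction in all 14 alternatives (-0.28 to -0.25) and was under an adjusted p of 0.05 in 9 of them. With the replicate number as a block it was -0.27 with an edgeR adjusted p of 0.0672, so that 0 members were called lower. In that fit 502 genes in all were higher and 629 lower (3.54% and 4.44% of all genes tested). Whether libraries of the same number were pairs was not stated. Their deviations from the group means correlated at -0.023, -8.1e-04 and -0.17, which cannot decide this with 3 libraries per group. With the gene-length offset 3 members were called lower, Mcl1, Bbc3 and Bcl2a1b (-0.22, edgeR adjusted p 0.0468), against 6.99% of all genes tested. In that fit Bcl2, Bcl2a1d and Bax changed sign, to 0.037, -0.037 and -0.037. With library totals Bak1 turned to 0.0074. None of these sign changes passed the threshold. Leaving out 1 library gave 0 to 2 members called lower and 0 to 2 called higher, and 328 to 1097 genes higher and 411 to 1311 lower, against 661 and 842 with all libraries. As shares of all genes tested, these fits called 2.25% to 7.55% higher and 2.82% to 9.02% lower, against 4.66% and 5.94% with all libraries. Omitting DB2313 replicate 2 gave the fewest called genes, and omitting replicate 3 of that group the most. Over the same fits Bax ranged from -0.063 to 0.11, Bak1 from -0.050 to 0.017, Bcl2a1d from -0.013 to 0.20 and Bcl2 from -0.065 to 0.0074. Fits that leave out a library have fewer samples by construction, and the cause of the higher counts without DB2313 replicate 3 was not tested. With 3 libraries per group the SE of the members was 0.063 to 0.10 on the log2 scale, which limits what could be seen.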

Other observations

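Over the 6 libraries, the protein-coding genes of at least 10 CPM whose log2 CPM was most like that of Mcl1 were Tob1, an anti-proliferative gene (Pearson r 0.996), Aebp2, a partner of Polycomb repressive complex 2 (0.996), and Rab1a, a GTPase of secretory transport (0.993), among 8984 genes compared. These values are a description over 6 points that share the difference between the groups, and 532 genes had an r above 0.9. The log2 fold changes of Tob1 and Aebp2 were -0.50 and -0.26 (edgeR adjusted p 0.00238 and 0.0196), and that of Rab1a was -0.14 (0.208).

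Of the reads per length on Bcl2l11 and Bbc3 together, Bbc3 took 64.7% to 67.8% in control and 57.8% to 63.1% with DB2313, with no overlap. The ratio of Bax to Bak1 reads was 0.738 to 0.947 in control and 0.817 to 0.973 with DB2313. Neither was tested.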
